A study of Mus musculus with 6 samples.

Results

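Extracellular matrix and integrin genes were described by the open chromatin called at and around them in 3 mouse cell lines. The set holds 43 genes, chosen by name: collagens, laminins and other basement membrane genes, matrix glycoproteins, enzymes that crosslink collagen, and the integrin receptors that bind matrix. All 43 were found among the 22342 protein-coding genes on chromosomes 1 to 19 and X of mm9. A peak was given to a gene when it overlapped the gene body or 10 kb on either side. It was a start-site peak when it came within 1 kb of the start of a protein-coding transcript, and an other peak when it did not.

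ATAC-seq, in which the Tn5 transposase cuts and tags accessible DNA, was carried out on nuclei of 3 lines with different Pax6 states. Pax6-HIGH (β-TC3) cells came from a mouse insulinoma, Pax6-ON (MV+) cells from cultured lens epithelia of a wild-type C57BL6 mouse, and Pax6-OFF (RAG) cells from a renal adenocarcinoma of the BALB/c strain. The paper calls all 3 lines immortalized, and the sources used here name no treatment or edit of them. All were grown in the same medium, and the lines were not authenticated. Both replicates of a line were pooled in 1 peak call, so that no value below has a replicate error and no difference between lines was tested.

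The lines differ in tissue, in donor animal and, for MV+, in the nuclei preparation (0.2% NP40 detergent against 0.1% in β-TC3 and RAG), and these cannot be told apart. The calls drew on 100254099, 130955836 and 102223606 fragments in Pax6-HIGH, Pax6-ON and Pax6-OFF cells. They gave 28024 peaks for Pax6-HIGH and 14022 for Pax6-OFF, which is 2.85 and 1.43 times the Pax6-ON number. Counts of genes with peaks can follow those totals, so most were repeated at equal peak number. This means all Pax6-ON peaks and as many of highest pileup (fragments at the summit) from each other line. Among markers of the labelled tissues, 6 of 10 islet genes had a start-site peak in Pax6-HIGH cells (*Neurod1* and *Isl1* among them, *Ins1* and *Ins2* not), 3 of 8 lens genes in Pax6-ON cells (*Pax6*, *Prox1* and *Maf*, with *Foxe3*, *Cryaa* and *Cryab* lacking one) and 3 of 8 renal genes in Pax6-OFF cells (*Pax2*, *Emx2* and *Cdh16*). In the other lines the islet list gave 3 (Pax6-ON) and 1 (Pax6-OFF), and the renal list 0 (Pax6-HIGH) and 1 (Pax6-ON). The lens list gave 3 (Pax6-HIGH, the same genes) and 2 (Pax6-OFF), so with all peaks it did not mark the lens line. At equal peak number the lens list gave 2, 3 and 1 in Pax6-HIGH, Pax6-ON and Pax6-OFF cells. The islet list then gave 5, 3 and 1, and the renal list 0, 1 and 3. Of 8 mesenchymal markers, 4, 3 and 2 had a start-site peak in Pax6-HIGH, Pax6-ON and Pax6-OFF cells, and of 6 epithelial markers 0, 0 and 1. At equal peak number these were 1, 3 and 2, and 0, 0 and 0, so that Pax6-HIGH went from the most mesenchymal markers to the fewest. The shares of all genes were 45.9%, 21.2% and 35.7% with all peaks, and 27.1%, 21.2% and 29.2% at equal peak number. The part of cell type in the values below was not tested.

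The extracellular matrix is the protein scaffold that cells secrete around themselves. Fibrillar collagens give connective tissue its tensile strength, while the basement membrane under epithelia is a sheet of laminin and type IV collagen networks joined by nidogens and perlecan. Integrins are pairs of an α and a β chain that span the plasma membrane, bind matrix outside and link to the actin or keratin cytoskeleton inside. The lens capsule is itself a thick basement membrane, and islets and kidney tubules also rest on one.

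Sequences at the strongest of these peaks show what kind of DNA was open. Each is read on the plus strand of mm9, centred on the peak summit or, where that window held transcribed untranslated bases, moved within the peak to the nearest window without any. Capitals mark the letters searched for on both strands: TGAGTCA (the AP-1 site), CAGCTG and CATCTG (E-boxes), GGAATG (TEAD), AACAATG (SOX) and TGTTTAC (FOX), and at start sites also GGGCGG (the GC box) and CCAAT. The first pair are the members' start-site peaks of highest fold enrichment, at *Itgb1* (chr8:131209453-131209553) and at *Itga1* (chr13:115892173-115892273). The next 3 are start-site peaks called in 1 line alone, and were chosen after the values were seen: *Lama1* in Pax6-HIGH (chr17:68046473-68046573), *Fn1* in Pax6-ON (chr1:71699870-71699970) and *Itga5* in Pax6-OFF cells (chr15:103197195-103197295). A match is a description of the letters and not evidence that a factor binds.
Itgb1 start: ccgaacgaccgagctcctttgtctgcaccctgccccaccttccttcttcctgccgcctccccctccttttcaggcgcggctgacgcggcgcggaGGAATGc
Itga1 start: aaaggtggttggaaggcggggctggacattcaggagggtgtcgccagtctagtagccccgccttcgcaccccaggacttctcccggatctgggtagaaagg
Lama1 start: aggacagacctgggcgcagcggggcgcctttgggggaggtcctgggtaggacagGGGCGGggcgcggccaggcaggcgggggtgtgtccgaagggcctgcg
Fn1 start: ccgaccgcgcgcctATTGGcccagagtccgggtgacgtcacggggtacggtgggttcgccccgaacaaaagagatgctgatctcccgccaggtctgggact
Itga5 start: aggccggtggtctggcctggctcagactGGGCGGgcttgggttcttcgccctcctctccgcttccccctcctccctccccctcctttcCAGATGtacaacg

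Away from start sites, the members' peak of highest fold enrichment was in intron 1 of *Col4a3* in Pax6-HIGH cells (chr1:82631280-82631380), and in both other lines it was the peak downstream of *Lama5*, at the start of the neighbouring gene *Adrm1* (chr2:179906089-179906189). The other 4 were called in 1 line alone: upstream of *Lamb3* in Pax6-ON cells (chr1:195124473-195124573), and in Pax6-HIGH cells in intron 10 of *Itgb5* (chr16:33922425-33922525), in intron 3 of *Lama1* (chr17:68081487-68081587) and upstream of *Sparc* (chr11:55241828-55241928). The GC-rich *Lama5* window is a neighbour's promoter, whereas the windows of *Lamb3* and *Lama1*, 3.63 and 34.9 kb from the nearest start of their gene, each hold the AP-1 letters.
Col4a3 intron 1: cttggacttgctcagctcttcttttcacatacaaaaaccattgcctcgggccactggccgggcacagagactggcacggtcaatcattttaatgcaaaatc
Lama5 downstream: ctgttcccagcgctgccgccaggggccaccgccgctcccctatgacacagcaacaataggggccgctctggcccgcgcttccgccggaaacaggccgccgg
Lamb3 upstream: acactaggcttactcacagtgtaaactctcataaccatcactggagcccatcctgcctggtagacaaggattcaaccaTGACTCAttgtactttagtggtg
Itgb5 intron 10: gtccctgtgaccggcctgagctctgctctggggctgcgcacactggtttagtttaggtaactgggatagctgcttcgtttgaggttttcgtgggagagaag
Lama1 intron 3: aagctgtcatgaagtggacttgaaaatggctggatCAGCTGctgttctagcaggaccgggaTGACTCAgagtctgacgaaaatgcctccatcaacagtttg
Sparc upstream: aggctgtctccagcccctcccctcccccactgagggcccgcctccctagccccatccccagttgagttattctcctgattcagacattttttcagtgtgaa

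Start-site peaks were found at 11 of the 43 genes in Pax6-HIGH cells (25.6%), at 8 in Pax6-ON cells (18.6%) and at 13 in Pax6-OFF cells (30.2%). Over all protein-coding genes the shares were 45.9%, 21.2% and 35.7%, so that the matrix and integrin genes lay furthest below the background in Pax6-HIGH cells and close to it in Pax6-ON cells. At equal peak number, 5 (11.6%), 8 (18.6%) and 6 (14.0%) of the genes had one, against 27.1%, 21.2% and 29.2% of all genes. The line with most members thus changed from Pax6-OFF to Pax6-ON. No start-site peak in any line was called at 23 of the genes (53.5%, against 50.0% of all genes), and a start-site peak in all 3 lines at 4 (9.3%, against 17.3%). At equal peak number these were 32 (74.4%, against 61.6%) and 4 (9.3%, against 14.2%). A missing peak means that no site passed the authors' cut at this depth, where the lowest pileup called was 25, 30 and 25 fragments in Pax6-HIGH, Pax6-ON and Pax6-OFF cells, and does not show closed chromatin.

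**Figure D1:**
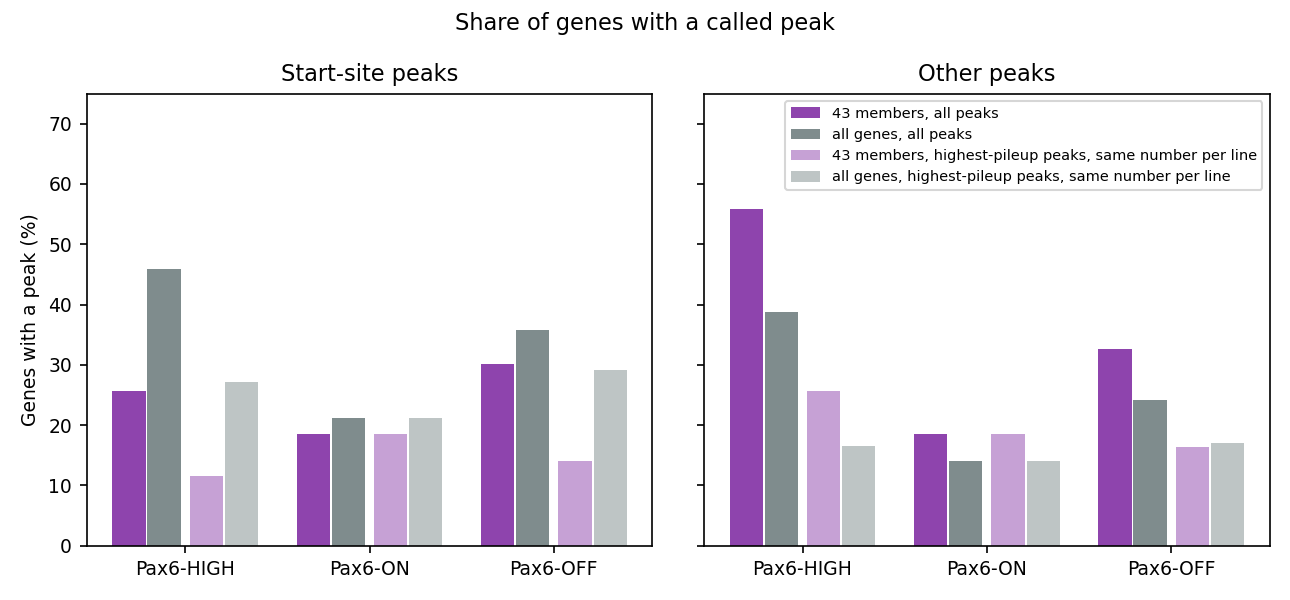
Share of genes (%) with a start-site peak (left) or another peak (right) in each cell line, for the 43 matrix and integrin genes and for all 22342 protein-coding genes, with all called peaks (dark bars) and at equal peak number (pale bars). In Pax6-HIGH cells the members are below all genes at start sites (25.6% against 45.9%) and above them away from start sites (55.8% against 38.8%).

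Integrins made up many of the genes with an open start. A start-site peak in at least 1 line was called at 8 of the 9 integrin genes and at 12 of the 34 matrix genes, beside 11170 of all 22342 genes. At equal peak number 11 members had one in any line, beside 8578 of all genes. The matrix genes among those members were *Lama1*, *Lamc1*, *Col12a1*, *Fn1* and *Fbn1*. By line the integrins with one numbered 6, 4 and 6 in Pax6-HIGH, Pax6-ON and Pax6-OFF cells, and the matrix genes 5, 4 and 7. The shares of all genes were 45.9%, 21.2% and 35.7%, and 27.1%, 21.2% and 29.2% at equal peak number. The integrins numbered 3, 4 and 5 at equal peak number and the matrix genes 2, 4 and 1, so that Pax6-OFF went from the most matrix genes to the fewest. None of the 5 fibrillar collagen genes and none of the 3 crosslinking enzyme genes (*Lox*, *Loxl1*, *Loxl2*) had one in any line. CpG content at the starts differed by role as well. The ratio of observed to expected CpG was taken within 250 bp of the outermost coding start. It was above 0.6 at 7 of the 9 integrins, at 1 of the 5 fibrillar collagens (*Col5a1*) and at none of the crosslinking enzymes. Of 15 basement membrane genes 10 were above 0.6, and 5 of these had a start-site peak. Of the 20 members with a start-site peak in any line 14 were above 0.6 (70.0%, against 80.3% of all genes with one). Of the 23 with none 8 were (34.8%, against 18.9%). Among the 9 integrins, *Itga1* (0.542) and *Itga2* (0.589) had a start-site peak and *Itgb4* (0.709) did not. With 8 of the 9 called, these genes cannot show whether the ratio runs with the calls.

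Such CpG-rich starts made up 22 of the 43 members (51.2%), near the 49.6% of all genes. Peaks at any coding start of a gene were counted below, and those of *Itga6* lay at an inner start. Among CpG-rich starts, a start-site peak was called at 8 of the 22 members in Pax6-HIGH cells (36.4%, against 75.6% of all CpG-rich genes), 5 in Pax6-ON (22.7%, against 35.5%) and 11 in Pax6-OFF cells (50.0%, against 61.6%). With equal peak numbers 4 (18.2%, against 46.3%), 5 (22.7%, against 35.5%) and 5 (22.7%, against 50.7%) had one. The 8 CpG-rich members with no start-site peak in any line were *Col4a1*, *Col4a2*, *Col5a1*, *Lama3*, *Nid1*, *Nid2*, *Tgfbi* and *Itgb4*. *Col4a1* and *Col4a2*, which encode the common chains of type IV collagen and are transcribed away from each other, had ratios of 0.854 and 0.851. The nearest summit to the *Col4a1* start was 30.6 kb away in Pax6-HIGH, 243 kb in Pax6-ON and 139 kb in Pax6-OFF cells.

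**Figure D2:**
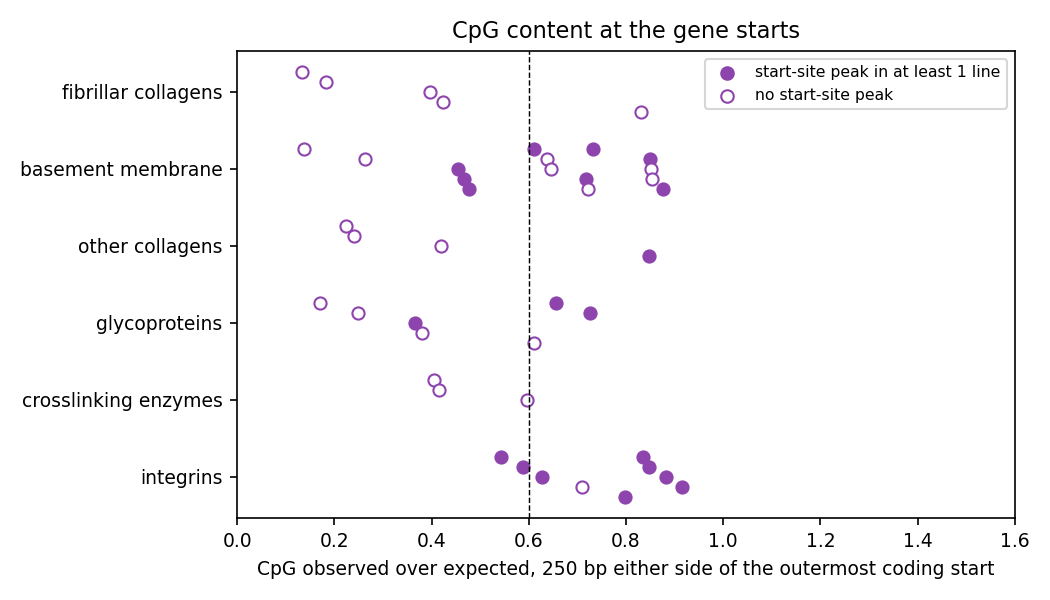
Observed over expected CpG within 250 bp of the outermost coding start of each of the 43 genes, by role, with filled points for genes with a start-site peak in at least 1 line. The dashed line marks 0.6. Of the 22 genes to its right 14 are filled, and of the 21 to its left 6 are. A peak at any coding start fills a point, and those of *Fbn1* (0.366) and *Itga6* (0.883) were at inner starts, outside the CpG window.

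The 4 genes with a start-site peak in every line were *Lamc1*, *Itga1*, *Itgav* and *Itgb1*, of which 3 are integrins. *Itgb1* encodes the β1 chain, the partner of many α chains, and its start-site peak had 160 fragments at the summit and a fold enrichment of 6.35 over the local background in Pax6-HIGH cells, the highest of the members' start-site peaks there. The Pax6-ON peak held 83 fragments (fold enrichment 5.54) and the Pax6-OFF peak 91 (6.38). Its summits lay 36, 81 and 22 bp from the nearest coding start. *Itga1*, whose product pairs with β1 as a collagen receptor, gave the highest start-site fold enrichment of the members in both other lines, at 6.13 on 92 fragments in Pax6-ON cells and 7.07 on 118 fragments in Pax6-OFF cells, with 5.39 on 126 fragments in Pax6-HIGH cells. Within its own line the *Itga1* peak was among the top 6.08% of Pax6-OFF peaks by pileup, the top 11.3% in Pax6-HIGH and the top 20.4% in Pax6-ON cells.

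*Itgav* encodes αv, the chain that binds RGD-containing proteins such as fibronectin and vitronectin. Its start-site fold enrichments were 4.89, 4.09 and 5.74 in Pax6-HIGH, Pax6-ON and Pax6-OFF cells, on 104, 61 and 67 fragments. *Lamc1* encodes the laminin γ1 chain, found in most laminin trimers, and was the single matrix gene with a start-site peak in every line. Its pileup of 186 fragments in Pax6-HIGH cells was the largest of the members' start-site peaks, in the top 4.15% of that line, but stood on a local background of 41.1 fragments, which gave a fold enrichment of 4.44. In Pax6-ON and Pax6-OFF cells it had 56 and 44 fragments and fold enrichments of 3.76 and 3.80, in the top 57.0% and 61.0%. For all 8 genes with a start-site peak in more than 1 line, the 95% Poisson intervals of the fold enrichment, which cover counting error only, overlapped between the lines.

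**Figure D3:**
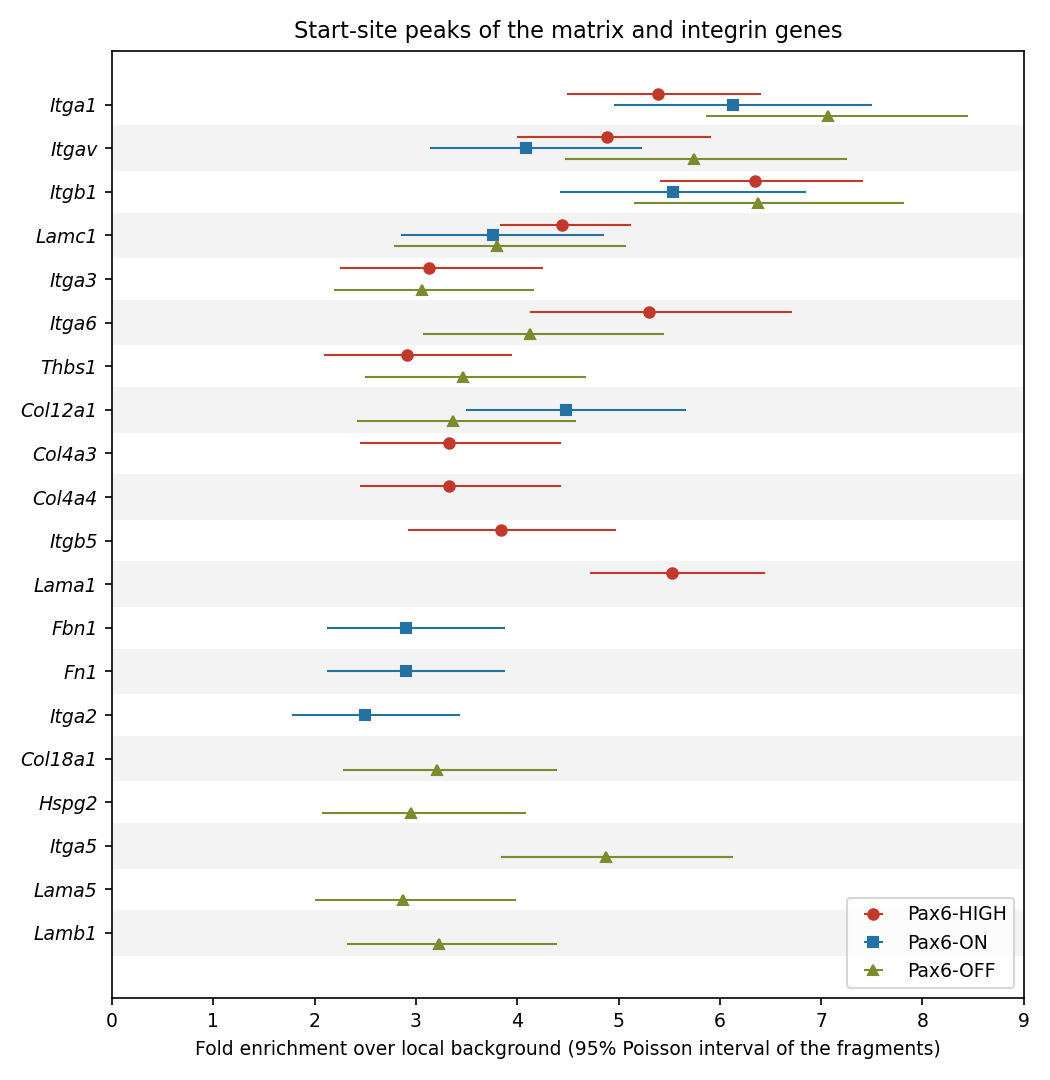
Fold enrichment over local background of the strongest start-site peak of each of the 20 genes that had one, by cell line, with 95% Poisson intervals of the fragment counts (counting error only). The 3 integrins and *Lamc1* at the top were called in every line, and where a gene has points from several lines their intervals overlap.

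Start-site peaks called in 1 line alone were found at 12 of the 20 members that had any (60.0%), against 29.0% of all genes that had any. At equal peak number this share was 7 of 11 members (63.6%), against 34.9%. As shares of all genes in a set, a start-site peak in Pax6-HIGH alone was called at 9.3% of members and 10.9% of all genes, in Pax6-ON alone at 6.98% and 1.06%, and in Pax6-OFF alone at 11.6% and 2.5%. The shares at equal peak number were 2.33% and 4.58%, 9.3% and 2.31%, and 4.65% and 6.53%. In Pax6-OFF alone the members thus went from above all genes to below. In Pax6-ON alone they were above with both sets of peaks, but the second set is no separate support. It keeps every Pax6-ON peak and cuts only the other lines, so that a count in Pax6-ON alone can only stay or rise. The member gained there was *Col12a1*, whose Pax6-OFF peak of 39 fragments was cut. The counts in 1 line alone are 4, 3 and 5 genes with all peaks and 1, 4 and 2 at equal peak number. Several have peaks near the lowest pileup called, and 1 pooled call per line gives no error for them. A gene alone in a line at equal peak number may have a peak below the cut of another line. *Itga6* then counts in Pax6-OFF alone (48 fragments), although its Pax6-HIGH peak, cut there, had 67.

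In Pax6-HIGH cells alone, the 4 genes were *Lama1*, *Itgb5*, *Col4a3* and *Col4a4*. *Lama1* encodes laminin α1, a chain of the early basement membrane and of the lens capsule. Its start-site peak (chr17:68046300-68047108) had 162 fragments (95% interval 138 to 189) and a fold enrichment of 5.53, in the top 6.11% of the line, and was the only start-site peak of these 4 genes that stayed at equal peak number. The nearest summit to this start was 71.6 kb away in Pax6-ON and 279 kb in Pax6-OFF cells. *Itgb5* encodes β5, which pairs with αv. Its start-site peak had a fold enrichment of 3.84 on 56 fragments (chr16:33829428-33830570), while the nearest summit was 1660 kb away in Pax6-ON and 235 kb in Pax6-OFF cells. *Col4a3* and *Col4a4*, which encode chains of the type IV collagen of the glomerular basement membrane, start head to head and shared 1 peak of 45 fragments and a fold enrichment of 3.33 (chr1:82583226-82583944).

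In Pax6-ON cells alone, the 3 genes were *Fn1*, *Fbn1* and *Itga2*, and all had weak peaks. *Fn1* encodes fibronectin, the ligand of α5β1. Its peak (chr1:71699437-71700083) had 43 fragments (95% interval 31.1 to 57.9) and a fold enrichment of 2.90, in the top 82.7% of the line, and came within 1 kb of a start annotated to *Apol7d* as well. In both other lines the nearest summit was 96.1 kb away. *Fbn1* encodes fibrillin-1, the core of microfibrils and of the zonular fibres that hold the lens. It had 2 start-site peaks, of 43 and 31 fragments with fold enrichments of 2.90 and 2.11, at an inner coding start, and the weaker peak also came within 1 kb of the start of *Gm9913*. *Itga2* encodes another collagen-binding α chain, and its peak (chr13:115722113-115722341) had 37 fragments and a fold enrichment of 2.50, in the top 93.6% of the line.

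In Pax6-OFF cells alone, 4 basement membrane genes and *Itga5* had a start-site peak. *Itga5* encodes α5, the fibronectin receptor chain. Its peak (chr15:103196931-103197555) had 72 fragments (95% interval 56.3 to 90.7) and a fold enrichment of 4.88, in the top 23.5% of the line. The basement membrane genes had lower peaks. *Lamb1* (laminin β1) had 39 fragments and a fold enrichment of 3.23, *Col18a1* (the precursor of endostatin) 37 and 3.21, *Hspg2* (perlecan) 34 and 2.95, and *Lama5* (laminin α5, a chain of mature basement membranes) 33 and 2.87. None of these 4 peaks stayed at equal peak number, whereas that of *Itga5* did. In Pax6-HIGH cells a peak of 56 fragments upstream of *Lama5* had its summit 1.98 kb from the start, outside the 1 kb limit.

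*Itga3*, *Itga6* and *Thbs1* had start-site peaks in Pax6-HIGH and Pax6-OFF but not in Pax6-ON cells. *Itga3* and *Itga6* encode the laminin-binding chains α3 and α6. *Itga6* had 67 fragments and a fold enrichment of 5.30 in Pax6-HIGH, and 48 and 4.13 in Pax6-OFF cells. *Itga3* had 39 and 3.13, and 38 and 3.06. *Thbs1* encodes thrombospondin-1, a matricellular glycoprotein, with 39 fragments and a fold enrichment of 2.91 in Pax6-HIGH and 40 and 3.46 in Pax6-OFF cells. The nearest summits in Pax6-ON cells were 46.6 kb from *Itga6*, 520 kb from *Itga3* and 145 kb from *Thbs1*. *Col12a1*, which encodes a collagen that coats fibrils, was the single gene with start-site peaks in Pax6-ON (67 fragments, fold enrichment 4.48) and Pax6-OFF cells (39 and 3.37) but not in Pax6-HIGH cells, where the nearest summit was 41.1 kb away. None of the 43 genes had a start-site peak in Pax6-HIGH and Pax6-ON but not Pax6-OFF cells, which was the pattern of 2.27% of all genes.

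Away from start sites, 24 of the 43 genes had a peak in Pax6-HIGH cells (55.8%), 8 had one in Pax6-ON cells (18.6%) and 14 had one in Pax6-OFF cells (32.6%), against 38.8%, 14.0% and 24.2% of all protein-coding genes. At equal peak number the counts were 11 (25.6%), 8 (18.6%) and 7 (16.3%), against 16.6%, 14.0% and 17.0%. The members were long genes, with a median of 67.7 kb against 15.4 kb, and so gave more room for peaks. Per Mb of gene body and flanks, the members had 13.6 such peaks in Pax6-HIGH cells against 10.4 over all genes, 3.34 against 2.89 in Pax6-ON and 4.54 against 4.54 in Pax6-OFF cells. At equal peak number these were 4.30 against 3.22, 3.34 against 2.89 and 2.39 against 2.98. Scaled for length, the members had 1.31 times the peaks of all genes in Pax6-HIGH cells (57 peaks), and 1.34 times at equal peak number (18 peaks). Of the 57, *Itgb5* held 7 and *Col5a1* 5. In Pax6-OFF cells the ratios were 1.0 (19 peaks) and 0.802 (10 peaks). All rest on few peaks and 1 call per line, and whether they differ from 1 was not tested. In Pax6-ON cells, where both sets are the same peaks, 14 peaks gave 1.16 times the background, which is near it.

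When overlapping peaks of the lines were joined, the members had 75 sites away from start sites, of which 49 were called in Pax6-HIGH alone (65.3%, against 55.3% over all genes), 7 in Pax6-ON alone (9.33%, against 8.39%) and 9 in Pax6-OFF alone (12.0%, against 10.4%). At equal peak number the members had 31 such sites, 13 in Pax6-HIGH alone, 8 in Pax6-ON alone, 4 in Pax6-OFF alone and 5 in all 3 lines. No all-gene share of sites was computed at equal peak number. Of the 75 sites, 5 were called in all 3 lines (6.67%, against 9.03%). Among these, 4 lay at the starts of neighbouring genes: *Mff* beside *Col4a3*, *Adrm1* beside *Lama5*, *Pelo* inside intron 1 of *Itga1*, and *Fam171b* beside *Itgav*. The fifth was the intron 1 site of *Col4a3*, 47.8 kb into the gene. It had 299 fragments in Pax6-HIGH cells (fold enrichment 7.57, in the top 0.953% of the line), 91 in Pax6-ON (6.06, top 20.9%) and 71 in Pax6-OFF cells (6.0, top 24.3%). Of the 10 sites away from start sites called in more than 1 line, the 95% intervals of the fold enrichment overlapped at 9, the exception being the *Mff* site (5.80, 3.03 and 3.97 in Pax6-HIGH, Pax6-ON and Pax6-OFF cells). The *Col4a3* intron 1 site was the strongest peak of the set in Pax6-HIGH cells, although the *Col4a3* start itself was called in that line alone.

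**Figure D4:**
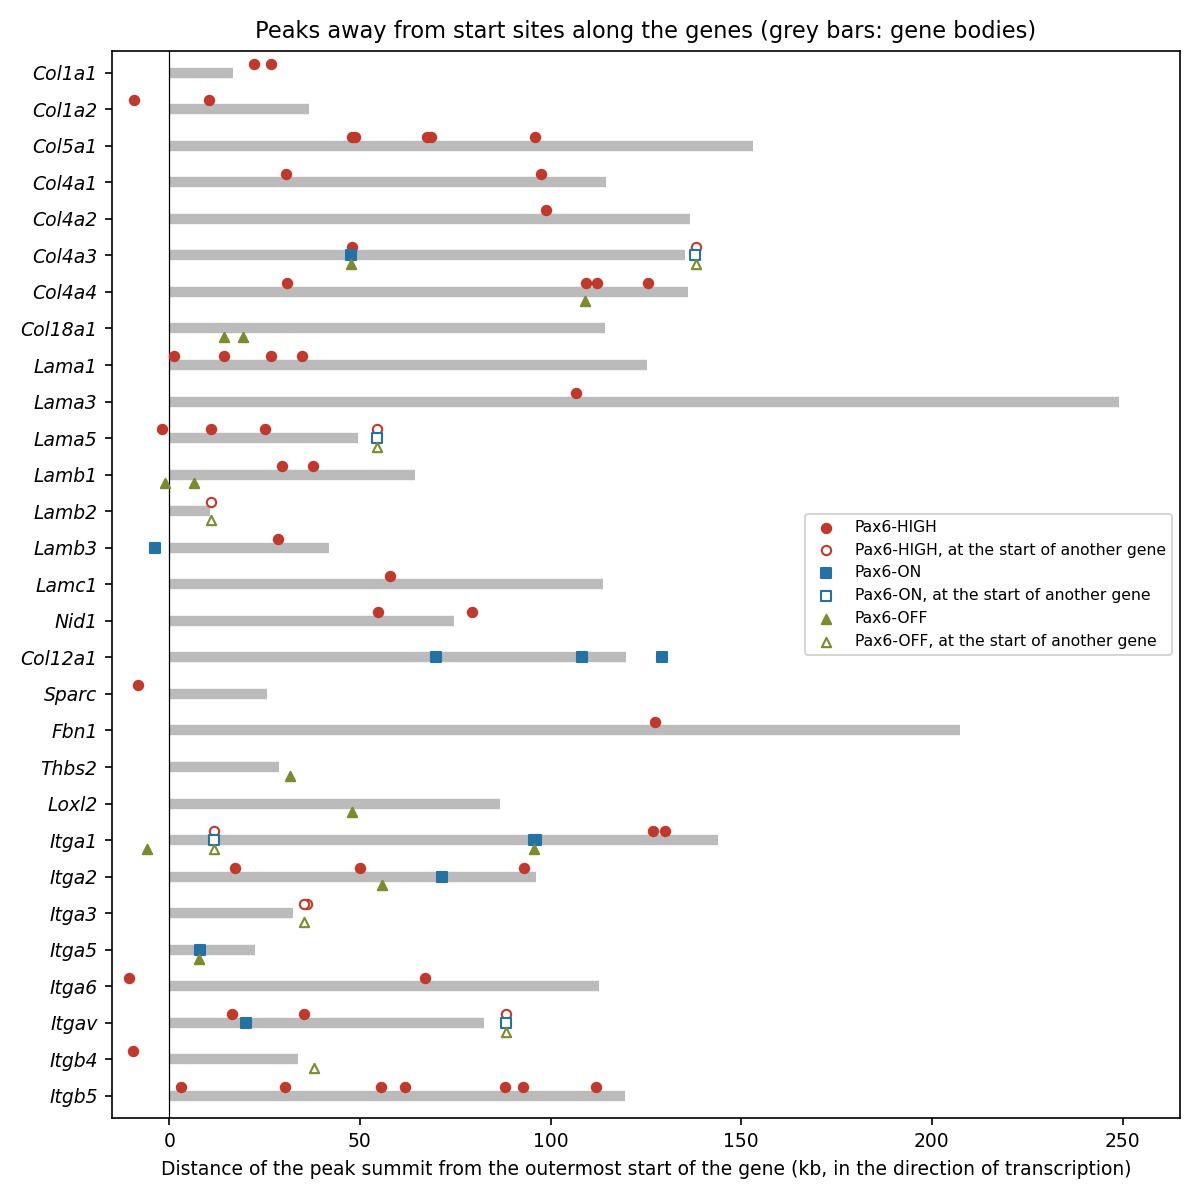
Summits of the peaks away from start sites, in kb from the outermost start of each gene along the direction of transcription, for the 29 members that had one. Grey bars are gene bodies, and open symbols lie within 1 kb of the start of another protein-coding gene. Sites where all 3 lines have a symbol are mostly open symbols, and the row of *Itgb5* holds 7 Pax6-HIGH peaks and no other.

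*Itgb5* had the most peaks away from its start, 7 in Pax6-HIGH cells and 0 in both other lines, all of them inside introns. The strongest, in intron 10, had 107 fragments and a fold enrichment of 6.98 (in the top 16.2% of the line), and the next, in intron 11, 95 and 6.17. The other 5 had between 30 and 46 fragments. *Col5a1*, a fibrillar collagen that nucleates collagen I fibrils, came next with 5 intron peaks in Pax6-HIGH cells and none in the other lines, of 35 to 54 fragments with fold enrichments from 2.81 to 4.30. No *Col5a1* peak stayed at equal peak number.

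*Col4a4*, *Lama1* and *Lama5* followed with 4 each in Pax6-HIGH cells. Those of *Lama1* lay 1.26, 14.3, 26.6 and 34.9 kb from its start with fold enrichments of 2.67, 5.08, 3.67 and 6.81, and, as with its start-site peak, no *Lama1* peak was called in either other line. The *Lama5* peaks in introns 11 and 2 and upstream were called in Pax6-HIGH cells alone, with 96, 31 and 56 fragments, while the remaining one was the *Adrm1* site, with fold enrichments of 6.70, 8.70 and 7.16 in Pax6-HIGH, Pax6-ON and Pax6-OFF cells. The peaks of *Col4a4* were weak, at 42 to 45 fragments, and 1 of them, in intron 38, was also called in Pax6-OFF cells with 26 fragments, next to the lowest pileup called there.

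In Pax6-ON cells *Col12a1* and *Itga1* had the most peaks away from start sites, with 3 each. Those of *Col12a1*, of 74, 76 and 80 fragments with fold enrichments of 4.94, 5.07 and 5.34, were called in that line alone, beside the start-site peak of this gene. *Itga1* also had 3 in Pax6-OFF cells and 3 in Pax6-HIGH cells, among them the *Pelo* site in all lines and a site in intron 9 called in Pax6-ON (59 fragments, 3.95) and Pax6-OFF cells (46, 3.97). *Col4a3* and *Itgav* had 2 each in Pax6-ON cells. In Pax6-OFF cells *Col4a3*, *Col18a1* and *Lamb1* had 2 each, and those of *Col18a1* (52 and 37 fragments) and *Lamb1* (30 and 32) were called in that line alone. The *Lamb1* peaks of Pax6-HIGH cells, of 102 and 94 fragments with fold enrichments of 5.58 and 6.19, were at other places in the gene.

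*Lamb3* encodes laminin β3, a chain of the laminin of epithelial anchoring sites. Its Pax6-ON peak 3.63 kb upstream had 112 fragments (95% interval 92.2 to 135) and a fold enrichment of 7.11, in the top 12.0% of that line, with no start-site peak at this gene in any line. *Sparc* encodes a collagen-binding glycoprotein of basement membranes, and had 1 peak, 8.30 kb upstream in Pax6-HIGH cells, of 83 fragments and a fold enrichment of 6.57. *Itga5* had an intron 2 site called in Pax6-ON (58 fragments, 3.89) and Pax6-OFF cells (38, 3.29).

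Fibrillar collagen genes had peaks in Pax6-HIGH cells alone, and then only away from start sites. Besides *Col5a1*, *Col1a1* and *Col1a2*, which encode the chains of collagen I, had 2 each. Those of *Col1a1* lay downstream, 5319 and 9872 bp past the gene end (22.1 and 26.7 kb from its start), with 46 and 37 fragments. Those of *Col1a2* lay upstream and in intron 6, 9.34 and 9.51 kb from its start, with 34 and 30. None stayed at equal peak number. *Col1a2* is on chromosome 6, which held 14.9% of Pax6-HIGH peaks against 6.62% of Pax6-ON and 4.81% of Pax6-OFF peaks, and the part of this in the *Col1a2* calls was not tested.

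No peak of either kind in any line was called at 10 genes (*Col3a1*, *Col5a2*, *Col6a1*, *Col6a2*, *Col6a3*, *Postn*, *Tgfbi*, *Lox*, *Loxl1* and *Nid2*), while 33 of the 43 had at least 1 (76.7%, against 67.4% of all genes). All 3 chains of collagen VI were in this group. The nearest summit to the start of *Col3a1* was 106 kb away in Pax6-HIGH, 468 kb in Pax6-ON and 106 kb in Pax6-OFF cells, and to that of *Postn*, which encodes periostin, 315, 430 and 315 kb. Of the remaining genes, *Nid1* had 2 peaks in Pax6-HIGH cells, *Col4a1* 2, and *Col4a2*, *Lama3* and *Fbn1* 1 each in that line. *Loxl2* and *Thbs2* had 1 each in Pax6-OFF cells. *Itgb4*, the integrin with no start-site peak, encodes the hemidesmosomal β4 chain and had 1 upstream peak in Pax6-HIGH cells (42 fragments) and 1 in Pax6-OFF cells (30 fragments) at the start of *Galk1*. The peaks given to *Lamb2* were at the start of *Usp19*, and those given to *Itga3* away from its start were at that of *Pdk2*.

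Letters were counted at the members' peaks and at the peaks of all genes in the same line, on sets that were not alike. TGAGTCA, the AP-1 site, lay within 100 bp of the summit at 5 of the 57 peaks away from start sites in Pax6-HIGH (8.77%, against 10.4% of such peaks over all genes), 5 of 14 in Pax6-ON (35.7%, against 36.1%) and 5 of 19 in Pax6-OFF cells (26.3%, against 20.4%). The 5 in Pax6-ON cells were at *Lamb3*, *Itga1*, *Itga2* and, at 2 places, *Col12a1*, and those in Pax6-OFF cells at *Col18a1*, *Itga1*, *Itga2*, *Loxl2* and *Thbs2*. *Itga1* and *Itga2* had them in both lines, at different places in each. The members' peaks include 7, 4 and 7 at the starts of other genes, none with the AP-1 letters. The all-gene shares cover 9547, 2432 and 3050 peaks, fewer than the 12997, 3626 and 5690 behind the densities per Mb. Without their peaks at other genes' starts the members' AP-1 shares would be higher, so the nearness of the shares cannot be read as likeness. The same limit holds for the other letters away from start sites. E-box letters lay at 40.4% of these peaks in Pax6-HIGH (40.5% over all genes), at 21.4% in Pax6-ON (31.1%) and at 36.8% in Pax6-OFF cells (27.8%), and TEAD letters at 5.26% (10.2%), 0 of 14 (18.4%) and 5.26% (14.9%). FOX and SOX letters were found in Pax6-HIGH cells alone, at 8.77% (7.12%) and 5.26% (2.31%) of the peaks, while over all genes FOX letters lay at 2.8% and 1.44% and SOX letters at 3.62% and 1.87% of Pax6-ON and Pax6-OFF peaks. At start-site peaks the GC box was found at 6 of 10 in Pax6-HIGH, 7 of 9 in Pax6-ON and 10 of 13 in Pax6-OFF cells, against 64.4%, 67.0% and 68.6% of start-site peaks over all genes. The CCAAT letters were found at 1 of 10, 1 of 9 and 0 of 13, against 32.5%, 37.6% and 33.2%, the *Fn1* peak printed above being the 1 in Pax6-ON cells.

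Another 92 genes of matrix and adhesion, listed by role, had start-site peaks at 28 in Pax6-HIGH cells (30.4%), at 19 in Pax6-ON cells (20.7%) and at 23 in Pax6-OFF cells (25.0%). Against 45.9%, 21.2% and 35.7% of all genes these were lower in Pax6-HIGH and Pax6-OFF cells and close in Pax6-ON cells. Of the 92, 13, 19 and 15 had one at equal peak number, where 27.1%, 21.2% and 29.2% of all genes did. Pax6-ON became the line with most. Genes of the integrin adhesion complex, which link the receptors to actin, stood higher, with 11, 7 and 9 of 13 (7, 7 and 7 at equal peak number). Among them were *Tln1* (talin), *Vcl* (vinculin), *Zyx*, *Ilk*, *Lims1* and *Ptk2* in every line and *Parva* in Pax6-HIGH cells alone. The peaks of *Tln1* and *Ilk* also lay at the starts of *Creb3* and *Rrp8*, and so cannot be given to 1 gene. Of 17 genes of matrix assembly and turnover, 8, 5 and 7 had one (2, 5 and 4 at equal peak number). *P4ha2* and *Mmp2* had one in Pax6-HIGH alone, and *Plod3* (at the start of *Znhit1* as well) and *Timp2* in Pax6-OFF alone. Of the 18 other collagens 1 had a start-site peak in each line, *Col8a1* in Pax6-HIGH, *Col11a1* in Pax6-ON and *Col4a5* in Pax6-OFF cells.

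Of 7 other laminin and basement membrane genes, 4, 2 and 1 had a start-site peak (2, 2 and 1 at equal peak number), *Lama4* and *Ntn4* in Pax6-HIGH cells alone. The 17 other integrins, which include the receptors of white blood cells and platelets, had start-site peaks at 2, 2 and 1 (1, 2 and 1 at equal peak number), with *Itga4* in Pax6-HIGH alone, *Itgb8* in Pax6-ON alone (171 fragments) and *Itga7* in Pax6-OFF alone. In the set itself 6, 4 and 6 of 9 had one. Of 20 other glycoproteins and proteoglycans, 2, 2 and 4 had one (1, 2 and 2 at equal peak number), with *Fbln5* in Pax6-ON alone, *Efemp2* and *Spp1* in Pax6-OFF alone and *Vcan* (versican) in every line.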

How the data were processed

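The authors trimmed reads with Trim Galore 0.4.1, aligned them to mm9 with Bowtie2 2.2.6 and called peaks with MACS2 2.1.1 on both pooled replicates of a line, in paired-end mode with no control, all duplicates kept, a 6250 bp local background and a q-value cut of 0.05. The input names mention a Picard duplicate step, but whether it removed duplicates is not given in the sources used here, so pileups and their intervals may count PCR copies. MACS2 used whole fragments without a shift for the Tn5 cut, which widens peaks. The deposited pileup is a signal, the fragments at the summit, not scaled for depth, and was not compared between lines as a level. Fold enrichment, as deposited, divides the pileup by the local background (a ratio, with a pseudocount of 1 on both). The authors' q-values are deposited as −log10 values and enter only a stricter alternative (below 0.001). A second peak format holds the same calls and was not used.

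Tables were handled in Python 3.11.15 (pandas 2.3.3) and peaks set against NCBIM37 (the assembly of mm9) and GENCODE M1 with pysam 0.24.0, by an overlap of at least 1 bp. Poisson intervals came from SciPy 1.17.1 and cover counting error only. Interval counts were tested on simulated peaks. The background was every protein-coding gene, and no test was run, since each line has 1 call. Values are given in full for members with a start-site peak in some lines, the 3 members with most other peaks per line (ties included) and the peaks of highest fold enrichment of each kind. The members and lists were chosen with earlier results of these data known. GC-box and CCAAT letters, and 3 of the start-site sequences, were chosen after the values were seen. Alternatives were other peak cuts, start sites, distances, flanks and overlaps.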

Additional observations from a re-analysis of the deposited data

How the results depend on the processing

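At equal peak number, the members with a start-site peak fell to 5 (Pax6-HIGH) and 6 (Pax6-OFF), those with another peak to 11 and 7, the other peaks per Mb to 4.3 and 2.39, and the sites in that line alone to 13 and 4, since fewer peaks were used. With 50 kb flanks, another peak was found at 18 members (Pax6-ON) and 26 (Pax6-OFF). Without peaks at the starts of other genes, 9 members had another peak in Pax6-OFF cells. The other alternatives left the members with either kind of peak, the peaks per Mb and the sites in 1 line alone within 1.5 times of the values reported. Counts by role, by CpG content in each line, by pattern of lines and for the other matrix genes were recomputed at equal peak number alone. Several moved by more than 1.5 times, and the main ones are given beside them. No paired analysis was possible because both replicates of a line were pooled in 1 call, and for the same reason no replicate could be left out. Differences in depth, peak number and nuclei preparation between the lines cannot be told apart from the lines themselves, and weak sites below 25 to 30 fragments were not called.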
